A study of Mus musculus with 24 samples.

Results

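The 200 genes described here were highest in the thoracic aorta of Klotho knockout mice fed a high magnesium diet. They were chosen from 41012 genes by their levels in these same samples. Each gene's estimated read counts were summed over its transcripts and divided by the library total, and are given as CPM, so that every library has the same sum. The median of log2(CPM + 1) over the 6 mice of a group was then taken. The score of a gene is that median in knockout mice on high magnesium minus the largest median of the other 3 groups, so it is a difference on a log2 scale. In all, 1086 genes had a score of at least 0.5, and the 200 of highest score are the members. That the members are high in knockout mice on high magnesium is therefore how they were chosen and not a result.

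The 24 mice were sampled at 8 weeks of age, are all labelled as strain C57/BL6, and gave 1 RNA-seq library each. Wild-type (WT) and Klotho -/- (KO) mice received a diet with 0.05% magnesium by weight (minimal) or 0.48% (high) from birth. The 4 groups are called WT minimal, WT high, KO minimal and KO high, with 6 separate mice in each. The labels give the tissue as thoracic aorta, entered in a second field as aorta, and name no driver or cell type to which the knockout is limited. Whether mice were littermates is not given in the sources used here.

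Klotho is a membrane protein of the kidney that serves as a coreceptor for FGF23, the hormone that makes the kidney excrete phosphate. Without it, phosphate and active vitamin D build up and arteries calcify in the smooth muscle layer. Magnesium slows the growth of calcium phosphate crystals and is studied as a means of limiting arterial calcification.

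The tables name genes by strain identifiers, and 0 of the 41012 identifiers occurred in the name tables used here. Members are therefore given by their rank in the score, 4 of them with the identifier, and what each one encodes is not stated. Markers of smooth muscle, fat, blood or other cells of the aortic wall were for the same reason not analysed here. In bulk tissue, more cells of a type and more RNA per cell cannot be told apart.

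Libraries held 9947455 to 18926802 counts. An earlier analysis of these data placed mouse 4 (WT minimal) nearer the KO mice and mouse 20 (KO minimal) nearer the WT mice. Whether the labels of these mice are exchanged could not be checked, as the Klotho gene could not be found among the identifiers, so ranges of WT minimal and KO minimal mice may each hold a mouse of the other genotype. In comparisons between groups other than KO high, counts of calls and median fold changes are given with and without both mice. Ranges and most single members are given with all mice. KO high mice carried the numbers 11, 12, 13, 16, 31 and 32, and mice numbered 1 to 18 made up 4 of the KO high group but 1 of the KO minimal group. The labels do not say whether these series of numbers mark a batch, so values within each series are given beside the pooled ones.

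The scores ran from 4.41 at rank 1 to 1.10 at rank 200, with a median of 1.42, and 43 members scored at least 2. At the edge of the choice, rank 199 scored 1.104 and rank 200 scored 1.103, against 1.096 for rank 201 and 1.095 for rank 202. The limit thus fell at no gap in the scores. With another group put in the place of KO high, 1989 genes scored at least 0.5 for KO minimal, 240 for WT high and 80 for WT minimal.

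The group next below KO high was KO minimal for 136 members, WT minimal for 57 and WT high for 7. Median levels in KO high mice ran from 1.51 to 3378 CPM, and 54 members had a median of at least 100 CPM. Another 25 members lay under 1 CPM in the median of all 3 other groups. Together the members took 3.28% ± 0.74 of the counts in KO high mice, 1.23% ± 0.40 in KO minimal, 0.753% ± 0.247 in WT high and 1.09% ± 0.60 in WT minimal (mean ± SD, n = 6 each). The lowest KO high mouse was at 2.41% and the highest mouse of any other group was mouse 4 at 2.19%.

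The 6 KO high mice did not carry the members evenly. A mouse was counted as high at a member when it exceeded the largest median of the other groups. At 101 members all 6 KO high mice were high. At 45 members mice 12, 13, 31 and 32 were high and mice 11 and 16 were not. The remaining 54 members had other patterns, of which the most frequent was high in every KO high mouse except mouse 31 (19 members). Mouse 13 was high at 98.5% of the members, mouse 12 at 97.5%, mouse 32 at 94.5%, mouse 31 at 85.5%, mouse 16 at 74% and mouse 11 at 70.5%.

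**Figure D1:**
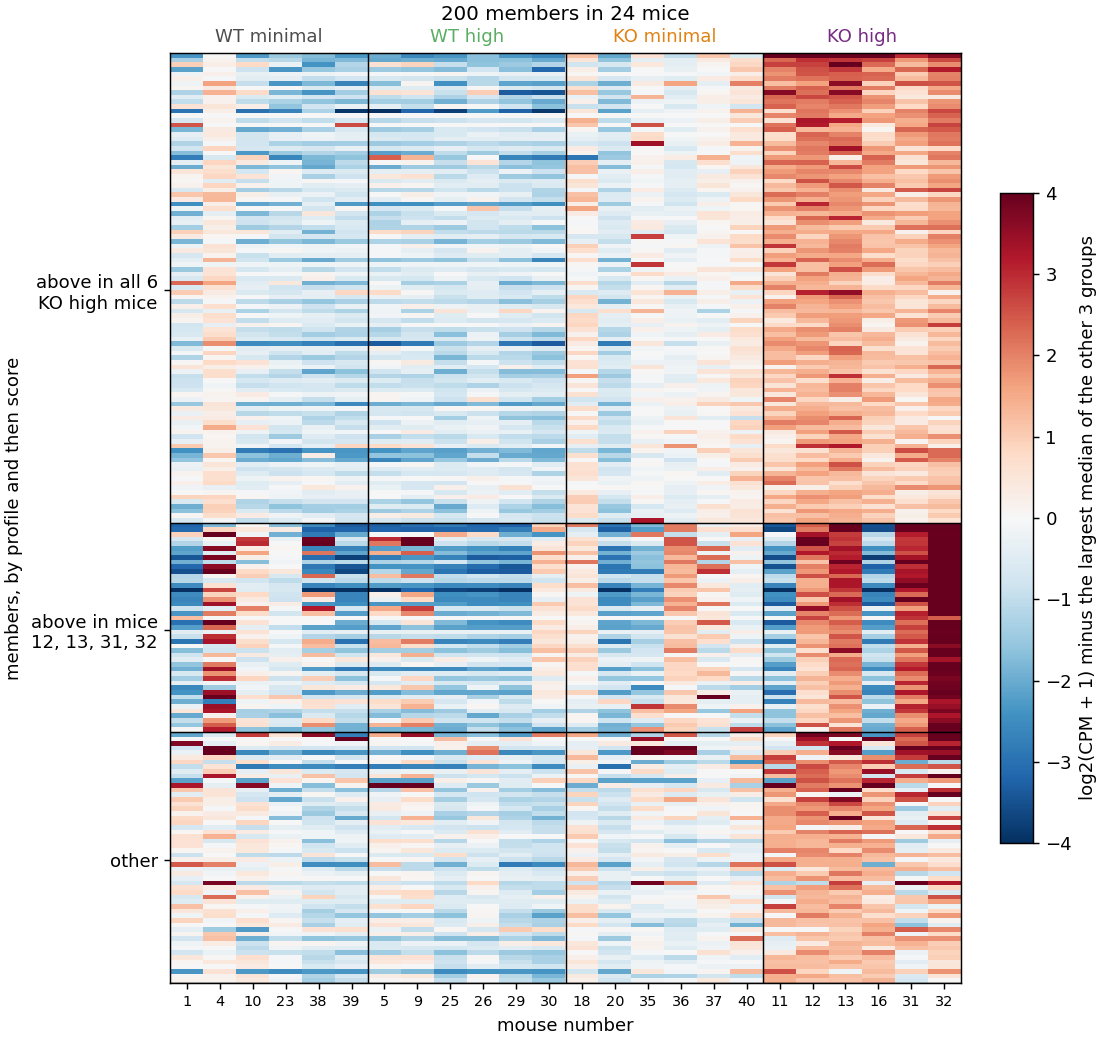
Each line across is 1 of the 200 members and each column is 1 mouse, labelled by its number and grouped by genotype and diet. Colour is log2(CPM + 1) minus the largest median of the other 3 groups, shown between -4 and 4. The upper block of 101 members is red in all 6 KO high mice, while the middle block of 45 is blue in mice 11 and 16, deep red in mouse 32 and also red at many members in mouse 4.

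The 101 members high in every KO high mouse held the largest part of the counts. They took 1.49% to 2.30% of the counts in KO high mice, with a median of 2.09%. KO minimal mice ranged from 0.383% to 1.04% with a median of 0.742%, WT minimal mice from 0.308% to 1.16% with a median of 0.518%, and WT high mice from 0.277% to 0.609% with a median of 0.417%. The summed share of the lowest KO high mouse (mouse 31) was above that of every other mouse, and the nearest of those was mouse 4. KO minimal, WT minimal and WT high overlapped one another.

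MGP_C57BL6NJ_G0032329, the member of highest score, belongs to these 101. In KO high mice it ranged from 61.3 CPM in mouse 31 to 602 CPM in mouse 11, with a median of 171 CPM. KO minimal mice ranged from 0.897 to 16.8 CPM with a median of 7.45 CPM. WT minimal mice ranged from 0.569 to 7.08 CPM with a median of 0.993 CPM, and WT high mice from 0.309 to 1.48 CPM with a median of 0.565 CPM. No mouse outside KO high came within the KO high range, and the lowest KO minimal value (mouse 20) lay among the WT values. Between KO minimal and WT minimal mice edgeR gave this gene a log2 fold change of 2.02 (SE 0.72) with an adjusted p of 0.134. Without mice 4 and 20 the same comparison gave 3.11 (SE 0.71) and an adjusted p of 0.00399.

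Complete separation of this kind was found at 30 members. At these, the lowest KO high mouse exceeded the highest of the 18 other mice, which is 15% of the members against 0.705% of the 16741 genes tested (118 genes). As the rule selected on the same levels, nothing is read from that difference. All 30 belong to the 101 high in every KO high mouse, and their ranks ran from 1 to 176. The following examples were picked after their values were seen, to span the range of levels.

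Among the members of low level, rank 49 was listed at 0 in all 12 WT mice, where a count of 0 allows up to 0.159 to 0.299 CPM (3 counts per library, counting error only). KO minimal mice reached 0.375 CPM in mouse 40, with a median of 0. KO high mice ranged from 1.84 to 4.14 CPM with a median of 2.72 CPM. Rank 28 also lay near the floor outside KO high, with a highest other value of 0.484 CPM in mouse 40, and ranged from 1.46 to 5.93 CPM in KO high mice. Rank 12 rested on deeper counts, with 14.8 to 36.2 CPM in KO high mice and a median of 29.7 CPM. Its KO minimal values ran from 0.561 to 6.84 CPM, its WT minimal values from 0.309 to 4.29 CPM and its WT high values from 0.165 to 0.528 CPM. For all these the KO high mice stood clear of the rest, and mouse 31 or mouse 13 was the lowest of them.

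Further examples come from members of higher level. Rank 61 ranged from 246 to 691 CPM in KO high mice with a median of 459 CPM. Its KO minimal values ran from 43.6 CPM in mouse 20 to 216 CPM in mouse 40, with a median of 133 CPM. Its WT minimal values ran from 26.3 to 135 CPM with a median of 49.0 CPM, and its WT high values from 29.0 to 67.2 CPM with a median of 50.8 CPM. The highest WT value was again mouse 4, and every other WT mouse lay below 5 of the 6 KO minimal mice, the exception being mouse 20. Rank 40 showed no such step. It ranged from 183 to 546 CPM in KO high mice, from 74.7 to 165 CPM in KO minimal, from 71.5 to 138 CPM in WT minimal and from 63.0 to 111 CPM in WT high. The 3 lower groups of rank 40 overlapped over most of their range.

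Levels between genes are compared per transcript length, as the deposited TPM, in which counts are divided by transcript length and each library is scaled to the same sum. The member of highest TPM was rank 78, with a median of 2186 TPM in KO high mice and 763 TPM in KO minimal mice. Its KO high range, 1636 to 2793 TPM, overlapped with KO minimal (480 to 2062 TPM) and with WT minimal (526 to 1713 TPM). The overlap came from mouse 18 in KO minimal and mouse 4 in WT minimal. Rank 139 followed with a median of 2042 TPM in KO high, 917 TPM in KO minimal, 620 TPM in WT minimal and 454 TPM in WT high. The median member had 16.9 TPM in KO high mice, against 6.98 TPM for all genes tested. As the rule works on log2(CPM + 1), a gene near 0 in all groups cannot reach a high score.

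Mice 40, 18 and 4 most often came next. Within the 101, the highest value outside KO high was in mouse 40 for 30 of them, in mouse 18 for 25, in mouse 4 for 21 and in mouse 35 for 11. Rank 56 shows how far a single mouse can go. It had 28.1 CPM in mouse 35 (KO minimal), above every KO high mouse (4.53 to 11.4 CPM), while the other KO minimal mice lay between 0.561 and 6.23 CPM.

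The 45 members that were low in mice 11 and 16 formed a block of their own. Their summed share in KO high mice was 1.28% in mouse 32, 0.387% in mouse 31, 0.306% in mouse 13 and 0.181% in mouse 12. It was 0.00785% in mouse 11 and 0.00565% in mouse 16. The lowest share of all 24 mice was thus in a KO high mouse, mouse 16. Outside KO high, mouse 4 (WT minimal) held 0.407%, more than mouse 31, and the highest KO minimal mouse was mouse 37 at 0.101%. WT high mice ranged from 0.00713% to 0.0545%. All 4 groups overlapped in this share.

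**Figure D2:**
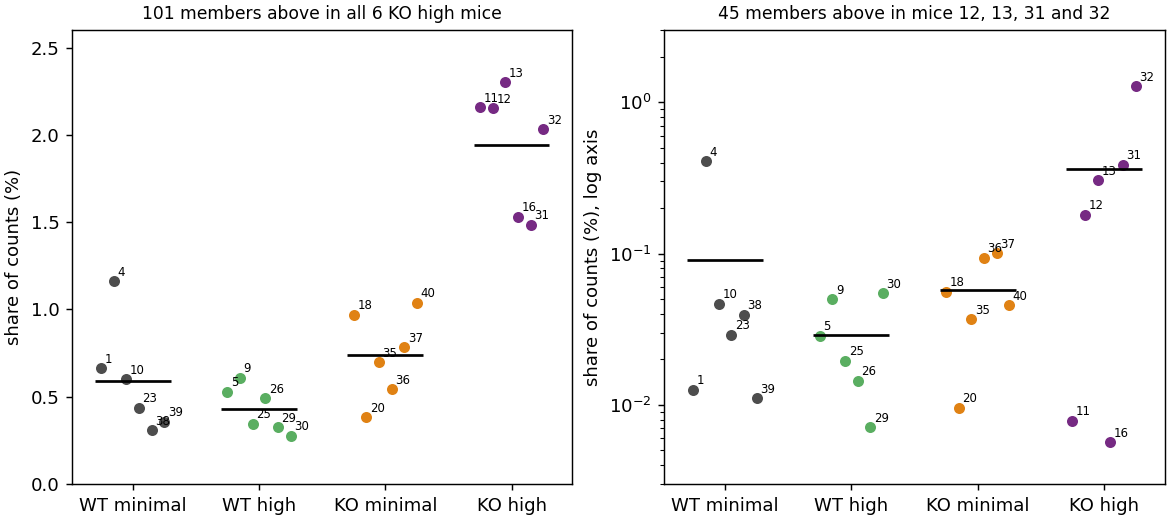
Share of each library's counts held by the 101 members high in all 6 KO high mice (left, linear axis from 0) and by the 45 members low in mice 11 and 16 (right, log axis). Points are mice with their numbers and lines are group means of 6 mice. On the left all KO high mice lie above 1.48% and all others below 1.17%, and on the right KO high mice take both the highest place (mouse 32, 1.28%) and the lowest (mouse 16, 0.00565%). Both sets were picked by which KO high mice were high, so the places of these mice partly follow from the choice.

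MGP_C57BL6NJ_G0018878, of second rank, is in this block. In KO high mice it stood at 755 CPM in mouse 32, 430 CPM in mouse 31, 278 CPM in mouse 13 and 64.1 CPM in mouse 12, but at 0.170 CPM in mouse 11 and 0.0755 CPM in mouse 16. KO minimal mice ranged from 0.568 to 50.1 CPM with a median of 11.5 CPM. WT minimal mice ranged from 0.220 to 11.6 CPM with a median of 1.83 CPM, and WT high mice from 0.272 to 21.5 CPM with a median of 0.420 CPM. Mice 11 and 16 thus had the lowest values of all 24, and the 4 other KO high mice had the highest. Between KO minimal and WT minimal mice edgeR gave it a log2 fold change of 2.56 (SE 1.44) and an adjusted p of 0.309.

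The same mice recur across the block. Rank 4 ranged from 0 CPM in mouse 11 to 1584 CPM in mouse 32. Rank 5 reached 645 CPM in mouse 4, above the 618 CPM of mouse 32, and lay between 4.57 and 170 CPM in the remaining WT and KO minimal mice. Rank 9, with a longest transcript of 602 bases, was at 415 CPM in mouse 32, 171 CPM in mouse 4 and 1.51 CPM in mouse 16. For ranks 6, 8 and 10 the highest value outside KO high was in mouse 38 or mouse 9 instead, with 28.0 CPM in mouse 9 for rank 6 and 88.9 CPM in mouse 32. Across the 45, the highest value outside KO high was in mouse 4 for 23 members and in mouse 36 for 9.

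Within the block the members moved together. Correlations were taken on log2(CPM + 1) after each gene's median in each group was subtracted, so they reflect variation within groups. The median correlation between pairs of the 45 over the 6 KO high mice was 0.97. As membership of the block was set by those mice, that is a description of the choice. Over the 18 other mice, whose values entered the choice through their group medians, the median was 0.46. Pairs of the 101 gave 0.45 over the same mice, and a member of the 45 paired with a member of the 101 gave 0.21. Pairs among 1675 genes spaced evenly through the list of genes tested gave 0.08. All these values share the same 18 libraries and their depths.

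The other 54 members include some of high rank that did not separate the groups. Rank 3 ranged from 0.987 CPM in mouse 16 to 271 CPM in mouse 32 in KO high mice. It reached 119 CPM in WT minimal (mouse 38) and 112 CPM in WT high (mouse 9), and all 4 groups overlapped. Rank 7 was listed at 0 in at least 1 mouse of every group, with a median of 6.47 CPM in KO high, and reached 16.4 CPM in WT minimal mouse 39.

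To read a mouse at genes it had not helped to choose, the rule was applied 24 times, each time without 1 mouse. The midpoint between the KO high median and the largest other median was taken over the mice left. Mouse 13 lay above that midpoint at 86.5% of the 200 genes chosen without it, mouse 32 at 71.5%, mouse 12 at 62%, mouse 31 at 51%, mouse 16 at 37% and mouse 11 at 35%. Mice of the other groups lay above it at 1% to 35% of their genes, with mouse 18 (KO minimal) at 35%, mouse 4 (WT minimal) at 34.5%, and mice 36 and 40 (KO minimal) at 31.5% each. On this measure mouse 11 thus equalled mouse 18, and mouse 16 stood just above it. In WT high the range was 1% to 14.5%. Above the largest other median itself, mouse 11 lay at 53% of its genes and mouse 16 at 58%. Both were passed by mouse 18 (79%), mouse 4 (78.5%), mouse 40 (74.5%) and mouse 37 (61%), and mouse 11 also by mouse 35 (54.5%). Mice 31, 12, 32 and 13 lay at 75.5% to 95.5%. Over all genes tested the shares were 24.4% in mouse 11, 31.7% in mouse 16, 30.3% in mouse 18 and 42.6% in mouse 4.

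**Figure D3:**
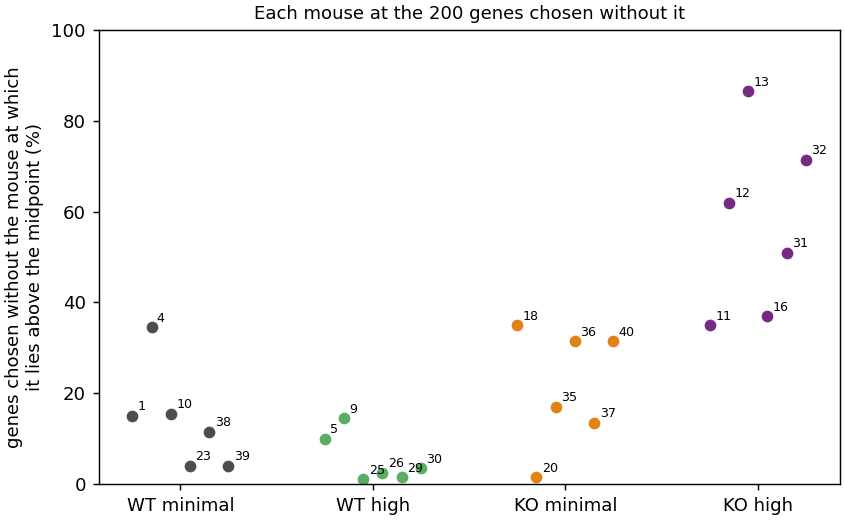
For each mouse, the percentage of the 200 genes chosen without it at which it lies above the midpoint between the KO high median and the largest other median. Points are single mice labelled by number. KO high mice spread from 35% (mouse 11) to 86.5% (mouse 13), and the lowest of them reach the level of mice 18 and 4.

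The score was also taken within each series of mouse numbers. Within mice 1 to 18 the median score of the 200 was 0.77 and 149 stayed above 0. These were 97 of the 101, 47 of the 54 and 5 of the 45. Within mice 20 to 40 the median score was 1.44 and 188 stayed above 0, namely 100 of the 101, 43 of the 54 and all 45. In the latter series the KO high group is mice 31 and 32 alone. The 101, 45 and 54 were told apart by which KO high mice were high. The 45 were by definition high in mice 31 and 32, but not in every KO high mouse of mice 1 to 18. Their counts within each series, and without mice 31 and 32, therefore largely follow from that definition. No difference between the series is read from them. Without mice 31 and 32, the rule chose 128 of the 200 members again, with 86 of the 101 but 2 of the 45, and complete separation was found at 72 members (36%), beside 2.02% of the genes tested (338 genes). Applied to TPM in place of CPM, the rule chose 70 of the 200 again, although all 200 kept a score above 0 with a median of 1.15.

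KO high mice take no part in the comparison of KO with WT mice on minimal magnesium, so the choice of members fixed no direction in it, although both groups' medians entered the score. Levels in edgeR's quasi-likelihood test rose at 2 of the 199 members tested (1.01%), against 0.699% of the 16741 genes tested, and fell at 0 members, against 0.125%. At an unadjusted p below 0.05 there were 32 members (16.1%), against 21.4% of all genes. The members' median log2 fold change was 0.14, against -0.02 for all genes, and 107 of them (53.8%) were above 0, against 47.3%. Both shares of calls are near those of all genes. The filter on low counts was run on all 4 groups, so members could pass it through KO high, where they were chosen to be high. In a fit of the 2 compared groups alone, 175 members among 15774 genes passed the filter. Of these members 0 were called, beside 0 of all genes.

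Both called members, named by rank after their values were seen, belong to the 101. Rank 94 ranged from 28.1 to 92.0 CPM in KO minimal mice with a median of 55.9 CPM, and from 13.6 to 54.3 CPM in WT minimal mice with a median of 16.6 CPM. The groups overlapped only through mouse 4, at 54.3 CPM. Its log2 fold change was 1.29 (SE 0.27), with an edgeR adjusted p of 0.0369. In KO high mice the same gene ranged from 121 to 215 CPM, so levels in the 3 groups were ordered WT minimal, KO minimal, KO high. Rank 56 gave 3.76 (SE 0.89) with an edgeR adjusted p of 0.0481, and its KO minimal level was led by mouse 35, as described above.

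This comparison turned on mice 4 and 20. Without them, 49 of 200 members rose (24.5%), against 13.6% of the 16829 genes then tested, and 1 fell (0.5%), against 10.5%. The members' median log2 fold change was 0.61, against -0.01 for all genes, and 151 (75.5%) were above 0, against 49.5%. Of the 49, 40 belong to the 101 (median log2 fold change of the 40, 1.65), 9 to the 54 and 0 to the 45. The block of 45 had a median log2 fold change of 1.33 without the 2 mice and -0.51 with all mice, and none of its members was called in either fit. Mice 4 and 20 were picked out by their expression, so the counts without them are a description and not a second test.

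**Figure D4:**
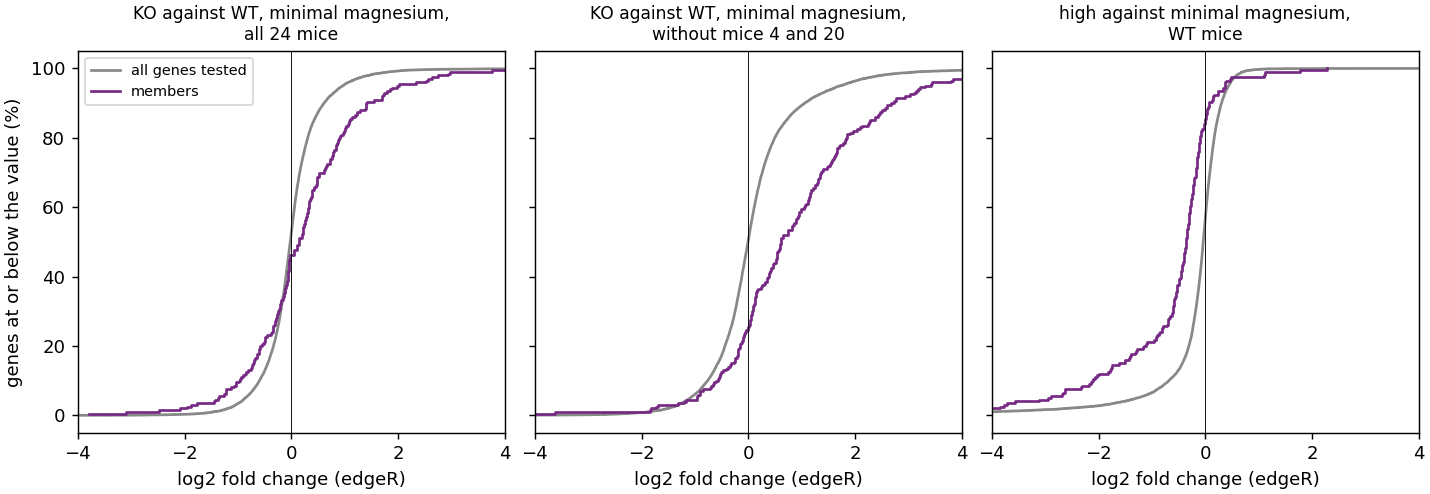
Cumulative share of genes by log2 fold change in edgeR, for the members (purple) and all genes tested (grey), shown between -4 and 4. Left, KO against WT on minimal magnesium, where the medians are 0.14 and -0.02. Middle, the same without mice 4 and 20, where they are 0.61 and -0.01. Right, high against minimal magnesium in WT mice, where they are -0.36 and -0.04.

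Of the members below 0 in this comparison, the 2 of smallest p did not pass the test. MGP_C57BL6NJ_G0014703 (rank 11) was at 16.3 CPM in mouse 1 and at most 0.620 CPM in the other WT minimal mice. KO minimal mice ranged from 0 to 0.719 CPM, and KO high mice from 0 CPM in mouse 11 to 11.2 CPM in mouse 13. Its log2 fold change was -3.78 (SE 1.41) with an edgeR adjusted p of 0.146, so its difference rested on mouse 1. Without mice 4 and 20 it was the 1 member that fell, with an edgeR adjusted p of 0.0320. MGP_C57BL6NJ_G0025614 (rank 45) had a different arrangement. It was at 196 CPM in mouse 11 and 86.8 CPM in mouse 16 but at 1.21 CPM in mouse 31 and 3.63 CPM in mouse 32. Mice 12 and 13 lay between these values, and the gene's KO high median was 16.9 CPM. Outside KO high it was at 122 CPM in mouse 5, 104 CPM in mouse 9, 57.8 CPM in mouse 10 and 43.1 CPM in mouse 1, and at most 4.96 CPM in every remaining mouse. The mice in which it was high thus all carried numbers from 1 to 18, and among mice of that series mice 4 and 18 were low. Its log2 fold change was -3.10 (SE 1.43) with an edgeR adjusted p of 0.212.

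The high magnesium diet in WT mice called no member. In edgeR 0 of 199 members rose (0% of all genes) and 0 fell (0% of all genes), with 17 members (8.54%) at an unadjusted p below 0.05, against 7.88% of all genes. DESeq2 called 3 members (1.51%), all lower, beside 1.25% of all genes, and limma-voom called 0 members lower, beside 0% of all genes. The members' median log2 fold change was -0.36, against -0.04 for all genes, and 30 of 199 (15.1%) were above 0, against 43.4%. Most members thus had lower fitted levels in WT high than in WT minimal mice, a difference that passed the test at none of them. Without mouse 4 and mouse 20 the median was -0.14, against -0.01, with 32.5% above 0, against 47.8%, and 0 calls. In a fit of the 2 WT groups alone, 153 members among 15292 genes passed the filter, and 0 were called, beside 0 of all genes. No test of the members as a set was made.

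For the comparisons that the rule used, calls follow from the choice and are listed without being read. Against KO minimal, 132 of 199 members were called higher in KO high mice, beside 11.7% of all genes. Against WT high it was 163 of 199 beside 16.3%, and against WT minimal 131 of 199 beside 12%. No member was called lower in any of the 3. Of the block of 45, where mice 11 and 16 were low, 6 of 44 tested were called against KO minimal, as were 86 of the 101.

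How a gene's counts divide among its transcripts was not itself used by the rule, which took their sum. The measures are not fully independent, since a gene whose sum is higher through 1 transcript also has shifted shares. Between KO high and KO minimal mice, edgeR's usage test called 0 of the 110 members with at least 2 transcripts tested, beside 1.48% of all genes, with 2 members at an unadjusted p below 0.05. A test of the shares themselves with limma, made over genes with at least 10 counts in every library, called 1 of 70 members (1.43%), beside 0.561%. Limma's diffSplice called 1 of 110 (0.909%), beside 1.59%. Between KO high and WT high mice edgeR called 6 of 110 (5.45%), beside 8.15%, and limma's diffSplice 5 of 110 (4.55%), beside 9.91%. Limma on shares called 13 of 70 (18.6%), beside 13.8%. These counts are small, and the test on shares covered 70 members where the others covered 110. No difference between members and all genes is therefore read from them.

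The called members show changes of different size. At rank 182, the transcript of 9181 bases held 74.0% to 85.6% of the gene's counts in KO high mice with a median of 80.0%, and 89.0% to 95.3% in WT high mice with a median of 90.3%. These groups did not overlap. KO minimal mice ranged from 77.2% to 93.0%, between and across both, and WT minimal mice from 84.0% in mouse 4 to 95.6%, so that mouse 4 lay inside the KO high range. The difference was called by edgeR (adjusted p 0.0194) and by limma on shares (adjusted p 0.00564). At rank 117, a minor transcript of 2381 bases held 0.312% to 1.14% in KO high mice, 1.42% to 1.92% in KO minimal and 2.12% to 5.62% in WT high. These 3 groups did not overlap, while WT minimal mice ranged from 1.20% to 4.05%, above all KO high mice but across both other groups. For this gene edgeR gave an adjusted p of 0.00847 for KO high against WT high.

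Rank 172 was the member called between the diets in KO mice by limma on shares (adjusted p 0.0257), while edgeR gave an adjusted p of 0.897 for it. Its transcript of 988 bases held 57.3% to 68.6% in KO high mice with a median of 64.6%, and 36.1% to 65.5% in KO minimal mice with a median of 48.8%. WT high mice ranged from 33.7% to 40.8% and WT minimal mice from 37.0% to 44.3%. Mouse 40 was the KO minimal mouse inside the KO high range, while mice 20 and 37 lay inside the WT range. At rank 42 the shares depended on which KO high mouse was read. Its transcript of 3286 bases held 91.5% in mouse 31 and 75.5% in mouse 32, but 12.6% to 30.4% in mice 11, 12, 13 and 16, against 71.4% to 100% in WT high mice. For KO high against WT high edgeR gave this gene an adjusted p of 0.00436. It had fewer than 10 counts in at least 1 library and was not tested on shares, so some of these percentages rest on few counts.

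The members had a median of 2 annotated transcripts, against 3 for all genes tested, and a median longest transcript of 2104.5 bases, against 2947 bases. Those with a single transcript made up 30.5% of the members and 31.2% of the genes tested. By pattern, the median longest transcript was 2482 bases for the 101, 1761 for the 45 and 1862 for the 54. The tables' own lengths were used, and no test was made of these properties.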

How the data were processed

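The authors deposited 1 transcript table per mouse. Per the submitters' processing notes, FastQC and Salmon were used with build mm10, and versions are not given in the sources used here. The deposited estimated counts (NumReads, per the file headers) of 102919 transcripts were summed per gene and used for CPM, and rounded for the tests. The deposited TPM values were used for levels per length and as an alternative. Tests used R 4.3.3, edgeR 4.0.16 (filterByExpr, TMM, a robust quasi-likelihood fit of 4 group means over all 24 mice, Benjamini-Hochberg adjustment over all genes tested, threshold 0.05), limma 3.58.1 and DESeq2 1.42.0. Tables were handled in Python 3.11.15. The filter kept 16741 genes, 199 of them members. Transcript usage was tested with edgeR's diffSpliceDGE, with limma's diffSplice, and with limma on arcsine root shares, the last added after seeing the data. On simulated data the gene test recovered most large changes and fewer of the small ones, with few false calls, while edgeR's usage test made more false calls than both limma tests, so counts from both limma tests are given beside it.

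Salmon divides reads among similar transcripts by model, so members with near-identical copies are uncertain, and RNA was not treated with DNase, per the labels' protocols. Members, lists and alternatives were chosen with earlier results of these data known. Marker and pathway lists by symbol were not used here, as no identifier could be matched. By rule, the identifiers printed are the 2 members of highest score and the 2 members below 0 with the smallest p in KO against WT on minimal magnesium, with other members given by rank. Mouse numbers are unique, so no mice are paired across groups.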

Additional observations from a re-analysis of the deposited data

Results flagged for a closer look

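In 32 sets of 6 mice (4 identified members and 4 summed shares, each in 4 groups), the gap between the extreme mouse and its nearest neighbour was compared with the range. About 1 set in 20 exceeds the limit used by chance when sets are independent and values normal, and 5 did so here. The sets overlap and the values are not on a log scale, so that rate need not hold and no excess is read from the 5. MGP_C57BL6NJ_G0032329 was at 7.08 CPM in mouse 4, far above the other WT minimal mice. MGP_C57BL6NJ_G0018878 was at 21.5 CPM in mouse 30, far above the other WT high mice. MGP_C57BL6NJ_G0014703 was at 16.3 CPM in mouse 1, far above the other WT minimal mice. The 45 members low in mice 11 and 16 took 1.28% of the counts in mouse 32, apart from the other KO high mice, and 0.407% in mouse 4, apart from the other WT minimal mice.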

How the results depend on the processing

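Between KO minimal and WT minimal mice 2 members were called. The count was 50 (25% of members, beside 24.1% of all genes) without mice 4 and 20. It was 37 (18.6% beside 33.2%) with limma-voom and library weights (35 higher, 2 lower) and 7 (3.52% beside 4.77%) with DESeq2. It was 1 with RLE scaling (0.503% beside 0.633%) and with no filter on low counts (0.5% beside 0.183%). It was also 1 without mice 31 and 32 (0.503% beside 1.25%) and with the series of mouse numbers as a term (0.503% beside 0.221%). A fit of only those 2 groups called 0 members and 0% of all genes. Leaving out each mouse in turn gave 0 to 27, with 27 (13.5% beside 12.8% of all genes) without mouse 4 and 18 (9% beside 8.98%) without mouse 20. Without any other mouse it was at most 2 (at most 1.01%, beside at most 0.978% of all genes). The cause was not tested. For diet in WT mice DESeq2 called 3 members (1.51%, all lower, beside 1.25% of all genes) and the other alternatives 0, beside 0% of all genes. For transcript usage between diets in KO mice the count of 0 became 1 with limma-voom diffSplice (0.909% beside 1.59% of all genes) and with limma on shares (1.43% beside 0.561%). It was also 1 without mice 31 and 32 (0.87% beside 1.58%), without mouse 37 (0.87% beside 1.25%) and without mouse 30 (0.877% beside 1.61%). The range over left-out KO and WT high mice was 0 to 1. Between genotypes on high magnesium the count became 13 with limma on shares (18.6% beside 13.8%), and 4 to 7 over left-out KO and WT high mice. It was 4 without mouse 30 (3.51% beside 6.69%). It was 7 without mouse 11 (6.14% beside 8.04%), mouse 20 (6.03% beside 8.13%) or mouse 32 (6.31% beside 6.18%). The WT high mice were left out as an addition after seeing the data. The rule chose 123 of the 200 members again with a pseudocount of 0.1, 70 with TPM, 128 without mice 31 and 32, 94 in mice 1 to 18 alone and 81 in mice 20 to 40 alone, with 145 to 197 over left-out mice. Members of complete separation numbered 72 without mice 31 and 32, against 30, while such genes among all tested numbered 338, against 118. The members' share of KO high libraries was 2.21% in TPM, against 3.28% of counts. Members near 0 CPM rest on few counts, and 6 mice a group with the spread seen here limit what can be called.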
